A study of Homo sapiens with 12 samples.

Results

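Cerebral organoids that lacked FEZ1 were compared with wildtype organoids at day 60 of culture, across all genes that passed a filter on low counts. The comparison used the 4 libraries that carry this day in the labels, 2 of FEZ1-null organoids and 2 of wildtype organoids, out of 12 libraries in the series. Both groups came from the same established line of human embryonic stem cells, H1, and no allele or agent other than the FEZ1 knockout is given for either. RNA was extracted with TRIzol and sequenced in bulk. The remaining 8 libraries are from day 10, and the 4 of them that share the label code B16 with the day 60 libraries (2 FEZ1-null, 2 wildtype) enter the comparison of days. The sources used here do not explain that code, give the number of knockout clones, or say whether replicate libraries are from separate cultures. The p-values therefore measure the spread among these particular libraries, and that spread may be technical.

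FEZ1 is an adaptor protein that links cargo to kinesin-1, the motor that moves vesicles outward along axons, and it is abundant in neurons. A cerebral organoid is a ball of neural tissue grown from pluripotent cells, in which radial glia divide and give rise to neurons of several brain regions. Excitatory neurons of the cortex come from dorsal progenitors, while most inhibitory GABAergic neurons come from ventral progenitors that express DLX homeobox genes. The share of each region varies between organoids, and in bulk RNA fewer cells of a type and less RNA per cell cannot be told apart.

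Total counts were 16.5 M and 18.3 M in the FEZ1-null libraries and 18.7 M and 18.2 M in the wildtype libraries. The FEZ1-null pair was much more alike than the wildtype pair: the biological coefficient of variation, which is the relative spread between replicates beyond counting noise, was 0.0583 in FEZ1-null organoids and 0.28 in wildtype organoids. Wildtype replicate 2 stood apart, with 156 genes at least 4-fold above each of the other 3 libraries, against 0 and 4 genes for FEZ1-null replicates 1 and 2 and 0 for wildtype replicate 1. The neural label held in all 4 libraries: the neuronal tubulin TUBB3 was at 1798 and 1832 CPM (counts scaled to library size) in FEZ1-null organoids and at 2005 and 1521 CPM in wildtype organoids, and the pluripotency factor POU5F1 at 0.603 and 0.598 CPM in FEZ1-null organoids and at 0.38 and 1.04 CPM in wildtype organoids.

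FEZ1 itself had 50.8 and 51.8 CPM in FEZ1-null organoids, against 250 and 215 CPM in wildtype organoids. The groups were well separated, and the FEZ1-null level was 22.1% of the wildtype level. Its log2 fold change was -2.18 ± 0.10 (SE, n = 2 against 2; adjusted p = 0.00233, edgeR's quasi-likelihood test), which was the smallest p of all genes tested. The count covers the whole gene, so it does not show which exons the remaining transcripts hold. FEZ2, its paralogue, had 27.4 and 24.8 CPM in FEZ1-null organoids and 27.1 and 25.5 CPM in wildtype organoids, and the ranges overlapped (log2 fold change -0.01 ± 0.10, adjusted p = 0.975).

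Of 16671 genes tested, 130 were called at an adjusted p below 0.05 (0.78%), 99 higher in FEZ1-null organoids (0.594%) and 31 lower (0.186%). The median log2 fold change was 0.92 among the called rises and -0.98 among the called falls. The 2 and 2 libraries did not overlap in any of the 130 genes, but over all genes tested 26% also lay higher without overlap in FEZ1-null organoids and 22.9% lower. Without regard to overlap, 49.3% of all genes lay above 0 and 50.7% below. The number of calls depended on single libraries and on the fit: edgeR called 0 genes without either FEZ1-null library (975 and 901 at an unadjusted p below 0.05 without replicate 1 and without replicate 2), and with all 12 libraries sharing 1 estimate of the spread it called 0 higher and 4 lower. Without wildtype replicate 1 it called 1415 higher and 1949 lower, and without wildtype replicate 2 it called 1421 higher and 1221 lower. With a wildtype library left out, the spread was estimated from the closely alike FEZ1-null pair alone. All 130 genes kept their direction in each of the 17 alternatives run. Genes without overlap can hardly change direction when 1 library is left out, so this adds no support for the calls. DESeq2 called 17 of the 130 genes both without FEZ1-null replicate 1 and without FEZ1-null replicate 2, among them GAD1, DLX5, ATOH7, EBF3, MOXD1, TOP2A, ADGRV1, NNAT and LINC01305, which were higher in FEZ1-null organoids, and FEZ1, PLXND1, EMC10, ZNF280D, HERC2P2, GUSBP4 and CXCL11, which were lower. Every fold change below is FEZ1-null over wildtype, and every adjusted p is from the edgeR test over all genes tested.

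**Figure D1:**
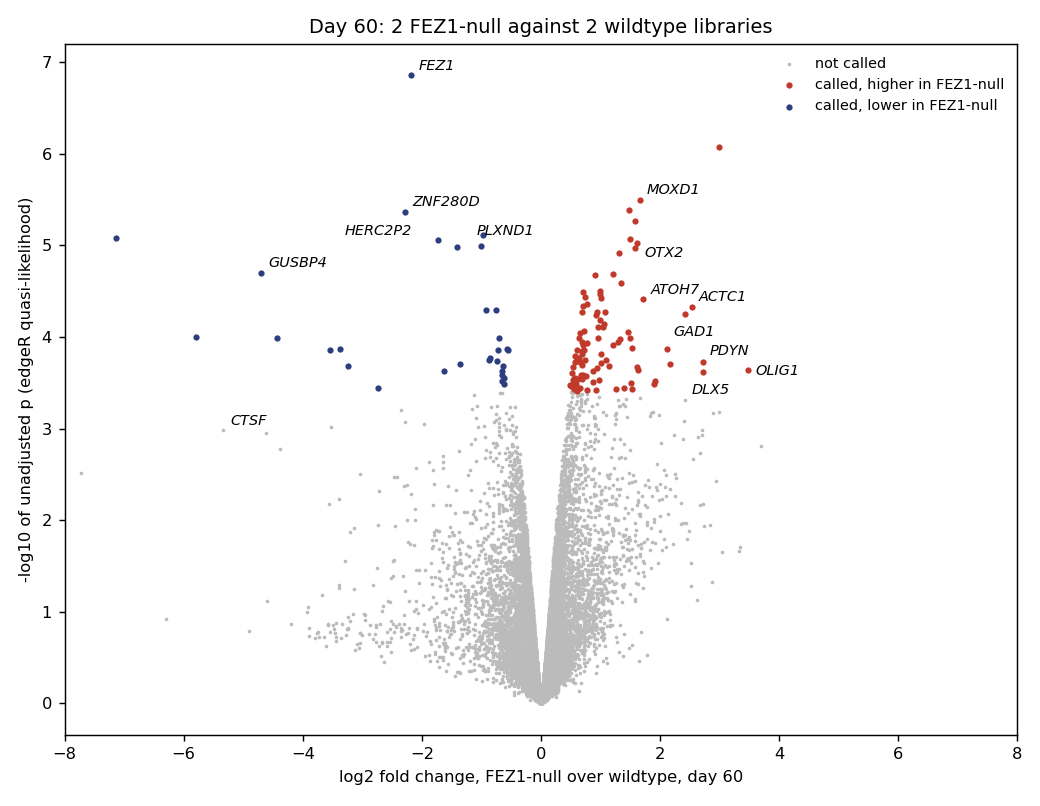
Each point is 1 of 16671 genes, with the log2 fold change of FEZ1-null over wildtype at day 60 on the x axis and the -log10 of the unadjusted p on the y axis. Called genes are coloured, 99 higher in red and 31 lower in blue, and FEZ1 lies highest at a log2 fold change of -2.18.

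Genes of GABAergic neurons and their ventral progenitors had the highest median log2 fold change of the 39 gene lists examined, at 2.38, against -0.00397 over all genes tested. The lists were chosen with earlier results of these data known, so this rank is a description only. Of the 16 GABAergic members measured, 2 were called higher and none lower, 15 lay above 0, and 14 were higher without overlap. Over all genes tested 0.594% were called higher, 49.3% lay above 0 and 26% were higher without overlap. The other 5 of 21 listed genes, NKX2-1, LHX6 and LHX8 of the medial ganglionic eminence and GSX1 and NPY, did not pass the filter on low counts. GAD1, which makes GABA from glutamate, had 46.7 and 44.5 CPM in FEZ1-null organoids, against 10.4 and 6.7 CPM in wildtype organoids. The wildtype libraries differed from each other, yet both lay far below the FEZ1-null pair, and GAD1 rose by 2.41 ± 0.21 on the log2 scale (adjusted p = 0.0276). DLX5, a homeobox factor that directs GABAergic fate, had 21.4 and 23.8 CPM in FEZ1-null organoids and 4.5 and 2.36 CPM in wildtype organoids, a log2 fold change of 2.71 ± 0.30 (adjusted p = 0.0434).

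The other members named here were chosen after their values were seen, and they did not pass the test. DLX1 and DLX2, homeobox factors that act before DLX5, had log2 fold changes of 2.72 (adjusted p = 0.14) and 2.35 (adjusted p = 0.14). GAD2, the second GABA-making enzyme, was at 27.6 and 29.5 CPM in FEZ1-null organoids and at 6.46 and 2.53 CPM in wildtype organoids. The vesicular GABA transporter SLC32A1 was at 19.7 and 24.1 CPM in FEZ1-null organoids and at 7.43 and 3.96 CPM in wildtype organoids. The progenitor factor GSX2 was at 13.9 and 14.7 CPM in FEZ1-null organoids and at 3.69 and 1.7 CPM in wildtype organoids. In each of these the lower wildtype value was that of replicate 2. Summed over the 16 members, the level was 706 and 708 CPM in FEZ1-null organoids and 288 and 175 CPM in wildtype organoids. The groups overlapped for a pair of interneuron markers: SST, a neuropeptide of cortical interneurons, was at 1.99 and 3.64 CPM in FEZ1-null organoids and at 4.18 and 3.52 CPM in wildtype organoids, and CALB2, a calcium-binding protein, at 13 and 13.6 CPM in FEZ1-null organoids and at 13.9 and 8.08 CPM in wildtype organoids. With wildtype replicate 2 left out, the median was 1.94, and with wildtype replicate 1 left out it was 2.87.

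**Figure D2:**
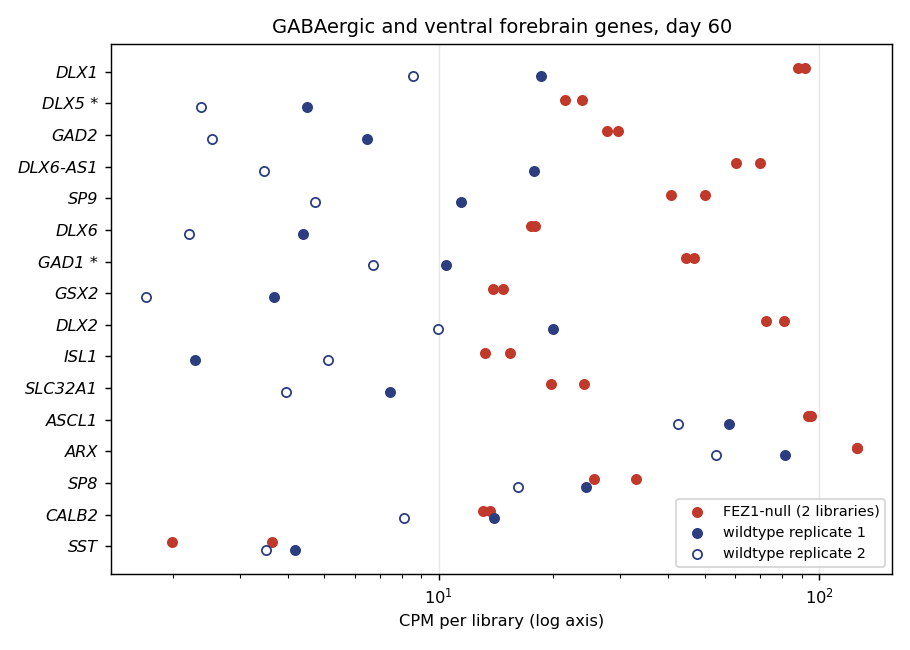
CPM on a log axis of each measured member of the GABAergic and ventral forebrain list, with 1 point per library and FEZ1-null libraries drawn above wildtype libraries. In 14 of 16 genes both FEZ1-null points lie to the right of both wildtype points, and SST and CALB2 overlap.

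Among called genes with a symbol other than a bare identifier and a mean of at least 5 CPM in FEZ1-null organoids, the largest rises were those of PDYN, DLX5, ACTC1, GAD1 and the SOX1 overlapping transcript SOX1-OT. PDYN, which encodes the precursor of the dynorphin opioid peptides, had 6.81 and 12.7 CPM in FEZ1-null organoids and 1.36 and 1.59 CPM in wildtype organoids, and rose by 2.72 ± 0.36 on the log2 scale (adjusted p = 0.0411). ACTC1, the cardiac muscle actin, had 6.33 and 8.53 CPM in FEZ1-null organoids and 1.3 and 1.26 CPM in wildtype organoids (log2 fold change 2.53 ± 0.28, adjusted p = 0.0273). PRDM13, a regulator of GABAergic fate in the spinal cord, retina and hypothalamus, was at 6.69 and 8.26 CPM in FEZ1-null organoids and at 1.47 and 1.98 CPM in wildtype organoids (log2 fold change 2.12 ± 0.27, adjusted p = 0.0369). These genes had low wildtype levels, and the groups were clearly apart in each. SOX1-OT overlaps SOX1, whose reads may be shared where strand was not used in counting. LAMP5, a membrane protein used as a marker of a class of cortical interneurons, rose by 1.63 ± 0.21 (adjusted p = 0.0427), and LY6H, which regulates nicotinic receptors, by 1.62 ± 0.14 (adjusted p = 0.0127).

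Genes of the eye field and neural retina, which grow out of the embryonic forebrain, lay higher in most cases. Of 18 measured members, 2 were called higher and none lower (median log2 fold change 1.21), where 0.594% of all genes tested were called higher. Of the 18, 16 lay above 0 and 14 were higher without overlap, against 49.3% and 26% of all genes tested. ATOH7, the proneural factor of retinal ganglion cells, had 47.6 and 40 CPM in FEZ1-null organoids, against 11.4 and 15.2 CPM in wildtype organoids. OTX2, a homeobox factor of the forebrain, midbrain and photoreceptors, had 22.5 and 22.2 CPM in FEZ1-null organoids, against 6.78 and 8.08 CPM in wildtype organoids. In both genes the FEZ1-null libraries were at about the same level and above the wildtype pair, with log2 fold changes of 1.72 ± 0.16 for ATOH7 (adjusted p = 0.0259) and 1.59 ± 0.14 for OTX2 (adjusted p = 0.0127). POU4F2, a factor of retinal ganglion cells that was chosen after its values were seen, was at 52.8 and 48.1 CPM in FEZ1-null organoids and at 8.95 and 18 CPM in wildtype organoids (adjusted p = 0.17). In this list wildtype replicate 2 was in most cases the nearer wildtype library: with it left out the median was 1.60, and with wildtype replicate 1 left out it was 1.06. Melanin and pigment epithelium genes had a median of 0.26 with 0 of 10 called, and the median ran from 0.07 without FEZ1-null replicate 2 to 0.66 without FEZ1-null replicate 1. PMEL, a melanosome protein, was at 41.2 and 55.3 CPM in FEZ1-null organoids and at 26.6 and 31.4 CPM in wildtype organoids, while OCA2, a melanosome transporter, was at 6.33 and 6.69 CPM in FEZ1-null organoids and at 9.98 and 9.12 CPM in wildtype organoids.

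Genes of more caudal brain regions also lay above 0, though few passed the test. HOX genes pattern the hindbrain and spinal cord. The set of all HOX clusters was chosen after its values were seen. Of 39 HOX genes in the deposited counts, 22 were measured, with a median log2 fold change of 1.25. Among these 2 were called higher, where 0.594% of all genes tested were. Of the 22, 19 lay above 0, against 49.3% of all genes tested. Without overlap 14 were higher and 1 lower, against 26% and 22.9% of all genes. HOXB5 had 116 and 126 CPM in FEZ1-null organoids, against 61.2 and 67.4 CPM in wildtype organoids, and rose by 0.91 ± 0.09 (adjusted p = 0.0197). HOXB6, chosen after its values were seen, had 76.5 and 104 CPM in FEZ1-null organoids and 37.7 and 38.2 CPM in wildtype organoids. It rose by 1.25 ± 0.16 (adjusted p = 0.0487). In both the lower FEZ1-null library was well above the higher wildtype library. Among 13 measured midbrain and hindbrain genes 11 lay above 0 and none was called (median 1.33), with the homeobox factor IRX2 at 19.4 and 22.8 CPM in FEZ1-null organoids and at 6.78 and 10 CPM in wildtype organoids. The median of that list was 0.79 without wildtype replicate 1 and also 0.79 without FEZ1-null replicate 2. Among 13 diencephalon and hypothalamus genes 12 lay above 0 and none was called (median 1.04), with FOXD1 at 3.44 and 3.26 CPM in FEZ1-null organoids and at 1.14 and 1.65 CPM in wildtype organoids. Its median was 0.41 without wildtype replicate 1, 1.74 without wildtype replicate 2 and 0.28 without FEZ1-null replicate 2. The 13 measured HOX genes of the anterior clusters, with a median of 1.37 in all 4 libraries, had 2.28 without wildtype replicate 2 and 0.86 without FEZ1-null replicate 2.

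Several called rises were genes of young and early-born neurons. RELN, the secreted guidance protein of Cajal-Retzius cells, had 105 and 121 CPM in FEZ1-null organoids, against 54 and 63.3 CPM in wildtype organoids (log2 fold change 0.95 ± 0.11, adjusted p = 0.0336). EBF3, a factor that directs neuronal differentiation, had 66.7 and 65.1 CPM in FEZ1-null organoids, against 31.8 and 25.5 CPM in wildtype organoids (log2 fold change 1.20 ± 0.12, adjusted p = 0.0197). Its relative EBF1 had 19.3 and 22.4 CPM in FEZ1-null organoids, against 5.97 and 8.46 CPM in wildtype organoids (log2 fold change 1.53 ± 0.19, adjusted p = 0.0369). These 3 genes had no overlap between groups and rose to about the same extent in both FEZ1-null libraries. Of the 9 Cajal-Retzius and preplate genes measured, 3 were called higher and 1 lower, where 0.594% and 0.186% of all genes tested were. The gene called lower was NR4A2, a nuclear receptor of subplate and dopamine neurons, with 44.2 and 35.4 CPM in FEZ1-null organoids and 72.1 and 71.6 CPM in wildtype organoids (log2 fold change -0.85 ± 0.11, adjusted p = 0.0407). Of 11 intermediate progenitor genes, NHLH2 rose by 0.97 ± 0.12 (adjusted p = 0.0355) and INSM1 by 0.55 ± 0.08 (adjusted p = 0.0461). Both are factors switched on as progenitors become neurons. The list as a whole was mixed, with 6 members above 0, 5 below and a median of 0.28. That median was 0.11 without wildtype replicate 2 and 0.43 without wildtype replicate 1. EOMES, which defines cortical intermediate progenitors and was chosen after its values were seen, was at 72.3 and 63.1 CPM in FEZ1-null organoids and at 102 and 72 CPM in wildtype organoids. EYA2, a placode factor, rose by 1.33 ± 0.17 (adjusted p = 0.0355) and was the 1 gene called of 14 neural crest and placode genes (median 1.12).

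Cell division genes were higher by a small and even amount. All 20 listed members were higher without overlap in FEZ1-null organoids, against 26% of all genes tested, with a median log2 fold change of 0.46. Of the 20, 4 were called higher, where 0.594% of all genes tested were. TOP2A, the topoisomerase that untangles chromosomes, had 465 and 449 CPM in FEZ1-null organoids, against 287 and 268 CPM in wildtype organoids (log2 fold change 0.72 ± 0.09, adjusted p = 0.0355). MKI67, the proliferation antigen Ki-67, had 210 and 214 CPM in FEZ1-null organoids, against 141 and 123 CPM in wildtype organoids (log2 fold change 0.68 ± 0.09, adjusted p = 0.039). CCNB1, the mitotic cyclin B1, had 80.2 and 80.1 CPM in FEZ1-null organoids, against 55.8 and 54.9 CPM in wildtype organoids (log2 fold change 0.53 ± 0.07, adjusted p = 0.0413). In these genes the spread within each pair was small beside the gap between groups, and the same held for TYMS, the thymidylate synthase (log2 fold change 0.69 ± 0.10, adjusted p = 0.0461). The median was 0.42 without wildtype replicate 2 and 0.50 without wildtype replicate 1.

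Many genes of mitosis are switched on together through promoters that hold a CCAAT box and the letters TTTGAA, a core of the cell cycle genes homology region. The stretches below are the 250 bases before the start of the 4 called members, from RefSeq on build GRCh38.p14, 5′ to 3′ on the gene's strand: MKI67 at chr10:128126424-128126673 on the minus strand, TOP2A at chr17:40417897-40418146 on the minus strand, CCNB1 at chr5:69166900-69167149 on the plus strand and TYMS at chr18:657403-657652 on the plus strand. Capitals mark TTTGAA and CCAAT on either strand, so that they also read TTCAAA and ATTGG.
MKI67: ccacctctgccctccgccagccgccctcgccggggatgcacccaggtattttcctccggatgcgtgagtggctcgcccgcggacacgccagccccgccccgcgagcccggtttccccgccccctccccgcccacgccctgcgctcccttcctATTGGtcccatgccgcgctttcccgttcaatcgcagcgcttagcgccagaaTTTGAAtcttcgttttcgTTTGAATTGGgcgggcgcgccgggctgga
TOP2A: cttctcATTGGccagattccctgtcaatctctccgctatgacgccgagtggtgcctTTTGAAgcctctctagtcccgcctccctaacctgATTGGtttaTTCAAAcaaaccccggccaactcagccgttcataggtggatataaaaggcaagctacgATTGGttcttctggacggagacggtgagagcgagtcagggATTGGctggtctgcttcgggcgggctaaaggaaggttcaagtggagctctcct
CCNB1: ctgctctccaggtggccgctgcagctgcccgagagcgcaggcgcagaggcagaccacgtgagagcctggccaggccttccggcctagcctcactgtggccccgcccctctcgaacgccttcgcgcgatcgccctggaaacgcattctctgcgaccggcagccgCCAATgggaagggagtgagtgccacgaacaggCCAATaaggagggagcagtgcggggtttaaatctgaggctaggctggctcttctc
TYMS: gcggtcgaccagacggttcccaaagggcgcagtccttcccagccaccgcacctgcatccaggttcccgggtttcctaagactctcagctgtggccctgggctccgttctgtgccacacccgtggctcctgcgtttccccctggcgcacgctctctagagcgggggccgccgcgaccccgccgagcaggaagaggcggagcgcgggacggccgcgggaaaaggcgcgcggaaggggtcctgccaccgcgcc
MKI67 held 2 TTTGAA and 2 CCAAT matches, of which 1 pair overlaps, TOP2A held 2 and 4, CCNB1 held 0 and 2, and TYMS held 0 of either in this window. Of 20 cell division genes, 17 had a promoter in the RefSeq table. CCAAT was found in 15 of these (88.2%), against 34.3% of 12577 tested genes with a promoter, and TTTGAA in 5 (29.4%), against 8.67%. These are matches of letters and not measured sites, and they also describe the list at large, whose members are known for such promoters.

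Radial glia, the stem cells of the developing cortex, showed the same direction. All 15 measured members lay above 0 and 10 were higher without overlap, against 49.3% and 26% of all genes tested. NES, the filament protein nestin, was the 1 gene called (log2 fold change 0.62 ± 0.09, adjusted p = 0.0487). It had 401 and 452 CPM in FEZ1-null organoids and 281 and 276 CPM in wildtype organoids. The list's median was 0.42. Among 12 outer radial glia genes 2 were called higher, where 0.594% of all genes tested were. Of the 12, 10 lay above 0 and 7 were higher without overlap, and the median was 0.36. MOXD1, a monooxygenase-like protein used as a marker of these cells, had 52.2 and 49 CPM in FEZ1-null organoids, against 14.4 and 17.7 CPM in wildtype organoids, which put the pairs far apart (log2 fold change 1.65 ± 0.12, adjusted p = 0.0127). HOPX, the homeodomain protein that marks the same cells, had 11.9 and 17.3 CPM in FEZ1-null organoids, against 5.1 and 4.4 CPM in wildtype organoids (log2 fold change 1.62 ± 0.23, adjusted p = 0.0413). LIFR and STAT3, which carry a signal that maintains outer radial glia, had log2 fold changes of 0.03 and -0.12 and were chosen after their values were seen. HES5, the Notch target of radial glia, was at 54.4 and 64.8 CPM in FEZ1-null organoids and at 30.4 and 38.3 CPM in wildtype organoids, and LFNG, which modifies Notch receptors, at 50.2 and 57.7 CPM in FEZ1-null organoids and at 35.5 and 36.4 CPM in wildtype organoids. Neither passed the test, and none of the 17 Notch pathway genes was called.

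**Figure D3:**
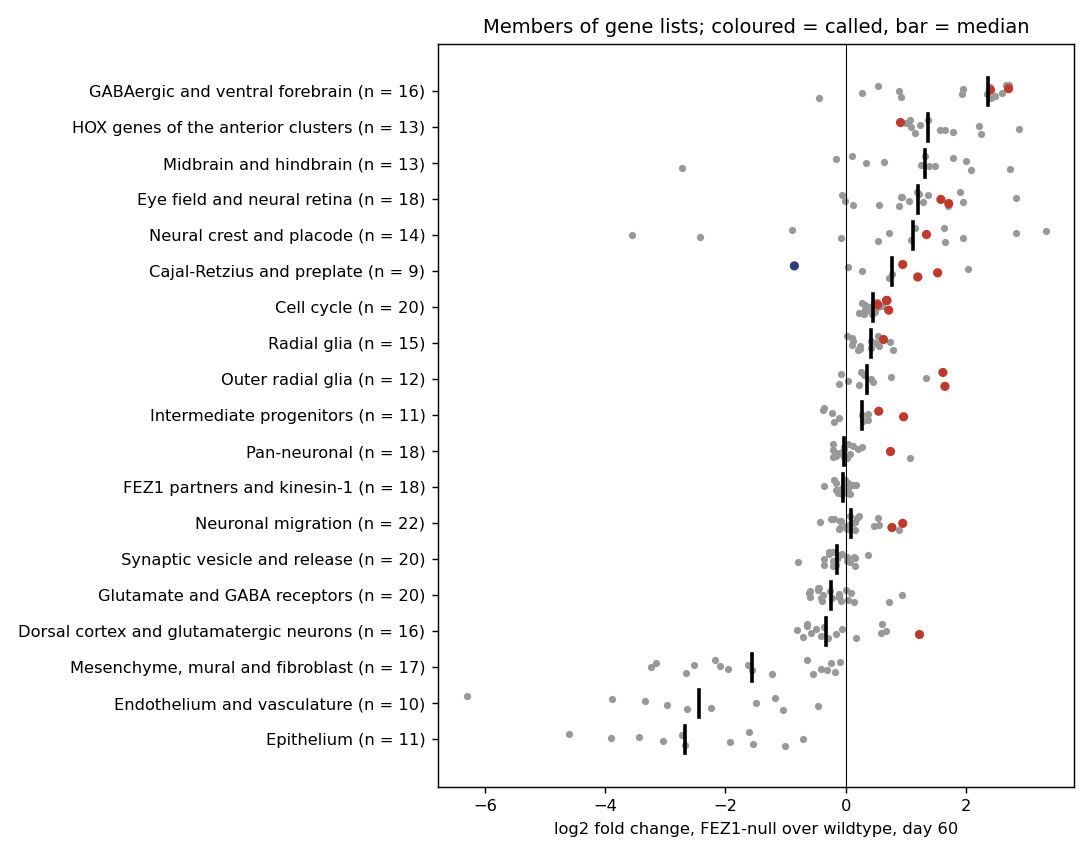
Log2 fold change of FEZ1-null over wildtype for each measured member of selected lists, with 1 point per gene, called genes coloured and the list's median drawn as a line. GABAergic genes have the highest median, 2.38, all 20 cell division genes lie above 0, and dorsal cortex genes spread to both sides with a median of -0.32.

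Genes of the dorsal cortex and its excitatory neurons pointed the other way for the most part, but none fell by the test. Of 16 members, 1 was called higher, 5 lay above 0, 5 were higher and 9 lower without overlap, against 26% and 22.9% of all genes, and the median was -0.32. FOXP2, a factor of deep-layer neurons that is also expressed in the striatum and thalamus, was the gene called higher, with 14.2 and 15.4 CPM in FEZ1-null organoids and 6.02 and 6.76 CPM in wildtype organoids (log2 fold change 1.21 ± 0.16, adjusted p = 0.0369). SLC17A7, the vesicular glutamate transporter of cortical neurons, was at 172 and 146 CPM in FEZ1-null organoids and at 310 and 245 CPM in wildtype organoids (adjusted p = 0.08). EMX1, a homeobox factor of the dorsal telencephalon, was at 73.3 and 79.7 CPM in FEZ1-null organoids and at 135 and 103 CPM in wildtype organoids (adjusted p = 0.13). Both were chosen after their values were seen, and both had pairs that did not overlap. With a wildtype library left out, the spread came from the closely alike FEZ1-null pair alone, as stated above. The calls of those fits therefore cannot show that dorsal cortex genes differed, and only the medians are read here. Without wildtype replicate 2 the list's median was -0.49, with 4 called higher and 10 lower where 8.33% and 7.16% of all genes were called. Without wildtype replicate 1 it was -0.12, with 5 called in each direction where 8.06% of all genes were called higher and 11.1% lower.

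Genes that neurons share differed little, with a median of -0.02 over 18 pan-neuronal genes, which was -0.16 without wildtype replicate 2 and 0.14 without wildtype replicate 1. NEFL, the light neurofilament of long axons, was the 1 gene called, with 108 and 119 CPM in FEZ1-null organoids and 73.5 and 63.6 CPM in wildtype organoids (log2 fold change 0.73 ± 0.10, adjusted p = 0.041). MAP2, a dendritic microtubule protein chosen after its values were seen, had a log2 fold change of -0.02. Among 20 synaptic vesicle genes none was called. Without overlap 2 were higher and 9 lower, against 26% and 22.9% of all genes tested. The list's median was -0.15, which was -0.27 without wildtype replicate 2 and -0.00 without wildtype replicate 1. SYN2, a synapsin that tethers vesicles, was at 10.5 and 9.13 CPM in FEZ1-null organoids and at 17.6 and 16.3 CPM in wildtype organoids (adjusted p = 0.0643). Among 20 glutamate and GABA receptor genes none was called, and 3 were higher and 9 lower without overlap. Their median was -0.24, which was -0.34 without wildtype replicate 2 and -0.17 without wildtype replicate 1. GRIN1, the obligate NMDA receptor subunit, was at 95.9 and 99.3 CPM in FEZ1-null organoids and at 160 and 134 CPM in wildtype organoids (adjusted p = 0.0604). SYN2 and GRIN1 were lower in both FEZ1-null libraries than in either wildtype library, without passing the test.

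Known partners of FEZ1 and the kinesin-1 motor did not pass the test, with 0 of 18 called and a median of -0.03 (-0.06 to 0.03 with 1 library left out). KIF5B, the broadly expressed kinesin-1 heavy chain, was at 304 and 282 CPM in FEZ1-null organoids and at 274 and 244 CPM in wildtype organoids (log2 fold change 0.18 ± 0.10, adjusted p = 0.422). STX1A, a syntaxin of the vesicle release machinery that is a known FEZ1 cargo, was at 91.7 and 92.2 CPM in FEZ1-null organoids and at 113 and 122 CPM in wildtype organoids (adjusted p = 0.105). Of 22 neuronal migration genes, 2 were called higher, where 0.594% of all genes tested were. They were RELN, as above, and RND3, a small GTP-binding protein that controls the actin skeleton of migrating neurons. RND3 had 140 and 121 CPM in FEZ1-null organoids, against 79.3 and 73.1 CPM in wildtype organoids, with no overlap (log2 fold change 0.77 ± 0.10, adjusted p = 0.0369). PAFAH1B1, the dynein regulator LIS1, had a log2 fold change of 0.00 and DCX, the microtubule protein doublecortin, of 0.07, and both were chosen after their values were seen. Among 19 SLIT, ROBO and netrin genes none was called. NEO1, a netrin receptor, was at 196 and 192 CPM in FEZ1-null organoids and at 312 and 251 CPM in wildtype organoids, and NTN4, a netrin, at 27.7 and 25.3 CPM in FEZ1-null organoids and at 17.1 and 20.5 CPM in wildtype organoids.

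Of the 31 genes called lower, NR4A2 was the 1 gene in a list. PLXND1, a semaphorin receptor of axons and vessels, had 208 and 197 CPM in FEZ1-null organoids, against 424 and 394 CPM in wildtype organoids (log2 fold change -1.01 ± 0.09, adjusted p = 0.0127). ZNF280D, a zinc finger protein, had 3.26 and 2.88 CPM in FEZ1-null organoids, against 14.9 and 15.1 CPM in wildtype organoids (log2 fold change -2.28 ± 0.17, adjusted p = 0.0127). EMC10, a subunit of the complex that inserts membrane proteins into the endoplasmic reticulum, had 57.2 and 61.1 CPM in FEZ1-null organoids, against 120 and 113 CPM in wildtype organoids (log2 fold change -0.98 ± 0.08, adjusted p = 0.0127). The 4 libraries split cleanly by genotype in all 3, with close values within each pair. PAPPA2, a protease that frees insulin-like growth factors, fell by 1.41 ± 0.12 on the log2 scale, and DMRT3, a factor of the dorsal telencephalon and of spinal interneurons, fell by 1.36 ± 0.19. PRKCB, a protein kinase C, fell by 0.87 ± 0.12, NKAIN2, which interacts with the sodium pump, fell by 0.93 ± 0.10, and the secreted olfactomedin-like protein OLFML3 fell by 1.63 ± 0.23. The adjusted p-values of these 5 genes lay between 0.0127 and 0.0428.

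GUSBP4, a pseudogene of the GUSB enzyme, was called at 0.181 and 0.217 CPM in FEZ1-null organoids and 4.02 and 6.76 CPM in wildtype organoids. Over the pairs it had 7 counts in FEZ1-null organoids and 197 in wildtype organoids, a ratio of wildtype to FEZ1-null of 26.6 with a 95% interval of 12.7 to 67.0 that covers counting error only. HERC2P2, a pseudogene of HERC2, had 10.1 and 13.4 CPM in FEZ1-null organoids and 38.1 and 39.6 CPM in wildtype organoids (log2 fold change -1.72 ± 0.15, adjusted p = 0.0127). Both may share reads with near-identical copies, so the locus is uncertain. CTSF, the lysosomal protease cathepsin F, had 0.241 and 1.3 CPM in FEZ1-null organoids, against 30.4 and 34.6 CPM in wildtype organoids, the widest gap of the 20 cathepsin and lysosome genes. Its FEZ1-null libraries held 4 and 24 counts, and it was not called here (log2 fold change -5.34 ± 0.56, adjusted p = 0.0684), but with all 12 libraries in 1 fit its adjusted p was 0.00222. None of the other 19 members of that list was called, and the list's median was -0.10 (0.01 without wildtype replicate 2, -0.29 without wildtype replicate 1).

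**Figure D4:**
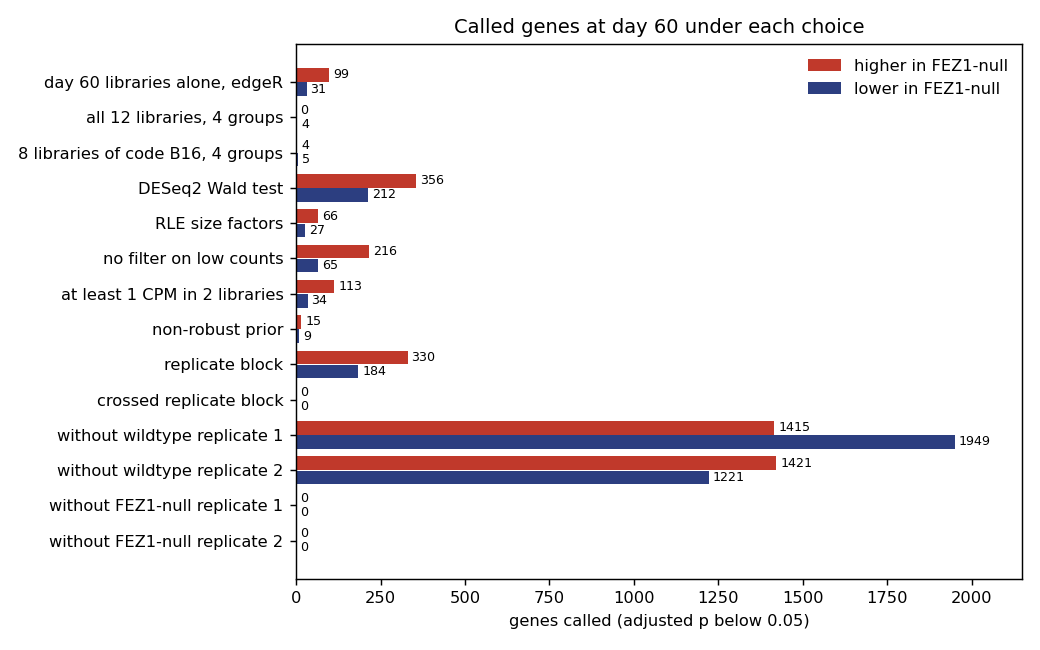
Number of genes called higher and lower in FEZ1-null organoids at day 60 under each fit and with each library left out. The main fit called 99 and 31, leaving out either FEZ1-null library gave 0 and 0, and leaving out either wildtype library gave more than 1000 in each direction.

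Transcripts of tissues other than neural tissue were uneven between the libraries. Mesenchyme, mural cell and fibroblast genes summed to 849 and 1058 CPM in FEZ1-null organoids and to 2308 and 4898 CPM in wildtype organoids. None of 17 lay above 0 and none was called (median -1.56). Without overlap 12 were lower, against 22.9% of all genes tested. COL6A3, a collagen of connective tissue, was at 21.3 and 24.4 CPM in FEZ1-null organoids and at 70.9 and 107 CPM in wildtype organoids (adjusted p = 0.065). Both wildtype libraries were above the FEZ1-null pair there, and the list's median without wildtype replicate 2 was -0.85. Epithelial genes summed to 33.0 and 34.9 CPM in FEZ1-null organoids and to 35.6 and 354 CPM in wildtype organoids, so that replicate 2 carried nearly all of the difference in the sum. Without it the median was -0.22 in place of -2.67. Of the 11 measured, 6 were still lower without overlap, with both wildtype libraries above the FEZ1-null pair. Endothelial genes summed to 43.0 and 44.7 CPM in FEZ1-null organoids and to 26.9 and 209 CPM in wildtype organoids, with medians of -2.44 with and -0.18 without that library. Of the 10 measured, 5 were lower without overlap. The endothelial cadherin CDH5, chosen after its values were seen, was at 0.121 and 0.163 CPM in FEZ1-null organoids and at 0.597 and 23.1 CPM in wildtype organoids. The mesenchymal values thus differed by genotype in the same libraries as the neural genes above. The epithelial and endothelial sums set wildtype replicate 2 apart instead. The part of any of these transcripts in the neural differences was not tested. Without wildtype replicate 2 the medians of the GABAergic, retinal and cell division genes were 1.94, 1.60 and 0.42, as given above. Wildtype replicate 1, which remains, also held more mesenchymal transcripts than the FEZ1-null pair. Genotype and mesenchyme therefore cannot be told apart in these libraries.

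**Figure D5:**
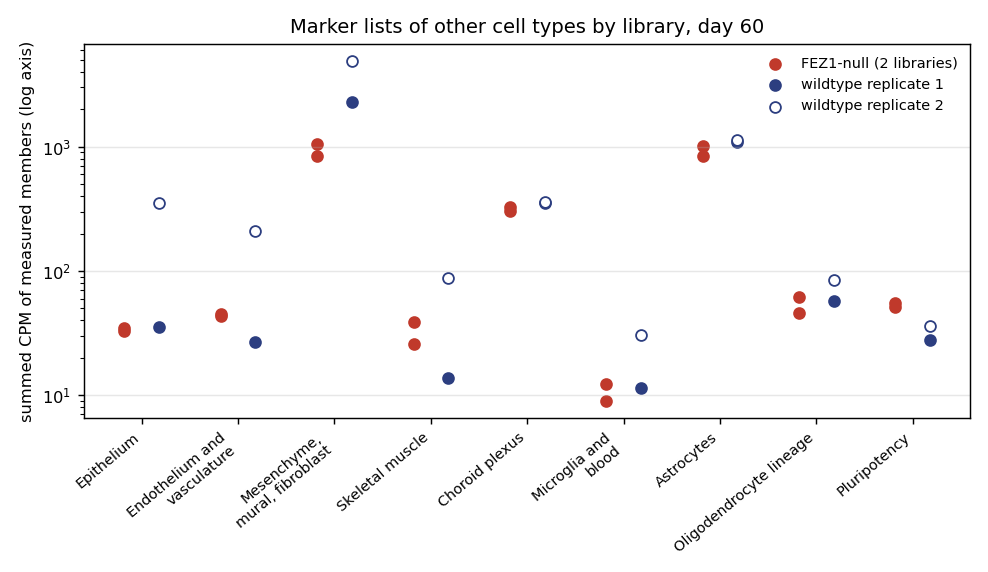
Summed CPM on a log axis of marker lists for cell types other than neurons and radial glia, with 1 point per library and FEZ1-null libraries left of wildtype libraries. Wildtype replicate 2 lies about an order of magnitude above the other 3 libraries for epithelium, and both wildtype libraries lie above both FEZ1-null libraries for mesenchyme.

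Glial and blood lists held few calls. OLIG1, a factor of oligodendrocyte precursors and of ventral progenitors, was called higher on low counts, at 1.51 and 1.69 CPM in FEZ1-null organoids and 0.109 and 0.165 CPM in wildtype organoids, with 56 and 5 counts in all (log2 fold change 3.48 ± 0.49, adjusted p = 0.0427). It was the 1 gene called of 8 in its list, whose median was -0.32, but 0.06 without wildtype replicate 2 and -0.58 without FEZ1-null replicate 2. Choroid plexus, astrocyte, and microglia and blood genes had 0 of 12, 0 of 10 and 0 of 6 called, with medians of -0.22, -0.24 and -0.99. Without wildtype replicate 2 these medians were 0.13, 0.00 and -0.43. TTR, the thyroid hormone carrier of the choroid plexus, was at 1.69 and 0.978 CPM in FEZ1-null organoids and at 4.88 and 23.2 CPM in wildtype organoids. Skeletal muscle genes had 0 of 8 called and a median of 0.87 (0.58 without FEZ1-null replicate 2), with the embryonic myosin MYH3 at 6.99 and 8.04 CPM in FEZ1-null organoids and at 3.26 and 3.08 CPM in wildtype organoids. Their sum was 25.6 and 38.9 CPM in FEZ1-null organoids and 13.7 and 88.3 CPM in wildtype organoids, so that wildtype replicate 2 held the most.

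Signalling and stress lists had no called member. WNT, BMP and hedgehog genes had 0 of 15, 0 of 14 and 0 of 12 called, with medians of 0.10, -0.32 and 0.29. The BMP median was 0.05 without wildtype replicate 2 and -0.49 without wildtype replicate 1. The WNT median ran from 0.02 to 0.19 and the hedgehog median from 0.19 to 0.41 with 1 library left out. PTCH1, the hedgehog receptor and target, was at 50.8 and 62 CPM in FEZ1-null organoids and at 26.6 and 33.3 CPM in wildtype organoids (adjusted p = 0.0652). BMP7, a BMP ligand, was at 78.1 and 80.2 CPM in FEZ1-null organoids and at 58.6 and 45.6 CPM in wildtype organoids, and LEF1, a WNT effector, at 10 and 14.2 CPM in FEZ1-null organoids and at 18.1 and 20.7 CPM in wildtype organoids. Genes of developmental timing, glycolysis and hypoxia, the unfolded protein response, p53 targets and cholesterol synthesis had medians between -0.15 and 0.07, and between -0.21 and 0.10 with 1 library left out. Of 5 measured pluripotency genes none was called, with the DNA methyltransferase DNMT3B, which neural progenitors also express, at 47.9 and 45.1 CPM in FEZ1-null organoids and at 24.9 and 30.8 CPM in wildtype organoids. In all, 25 of the 39 lists had no called member, and 107 of the 130 called genes were in no list.

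Whether the genotype difference at day 60 was the same as at day 10 was tested in the 8 libraries of code B16. The difference of log2 fold changes, day 60 minus day 10, was called above 0 for 777 of 17625 genes (4.41%) and below 0 for 131 (0.743%). FEZ1 was lower in FEZ1-null organoids at both days: in this fit it had 48.0 and 48.8 CPM in FEZ1-null organoids and 242 and 199 CPM in wildtype organoids at day 60, and 23.0 and 20.5 CPM in FEZ1-null organoids and 40.9 and 43.8 CPM in wildtype organoids at day 10. The fall was larger at day 60 by 1.22 on the log2 scale (difference -1.22 ± 0.23, adjusted p = 0.0201). MOXD1 had 49.3 and 46.2 CPM in FEZ1-null organoids and 14.0 and 16.4 CPM in wildtype organoids at day 60, and 2.53 and 1.66 CPM in FEZ1-null organoids and 16.6 and 19.8 CPM in wildtype organoids at day 10. Its direction was thus opposite at the 2 days, with a difference of 4.78 ± 0.32 (adjusted p = 0.00016). OTX2 was higher in FEZ1-null organoids at both days, at 298 and 332 CPM in FEZ1-null organoids and 226 and 200 CPM in wildtype organoids at day 10, and the difference of 1.02 ± 0.23 was called (adjusted p = 0.039). For GAD1 and DLX5 the differences of 1.36 ± 0.35 and 2.19 ± 0.52 were not called (adjusted p = 0.069 and 0.0503). With all 12 libraries in 1 fit no difference between days was called, in either direction (1269 genes at an unadjusted p below 0.05). Leaving out 1 of the 8 libraries moved the counts to between 410 and 3614 above 0 and between 15 and 2847 below 0, with the most in both directions without FEZ1-null day 10 replicate 2.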

How the data were processed

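Bulk RNA-seq of 12 organoid libraries was used, of which 4 are from day 60. The raw count table deposited by the authors lists gene symbols. Per the submitters' processing notes, the tools were STAR, HTSeq and DESeq2 and the build hg19, with no role or order given. Their settings, the annotation and the use of strand in counting are not stated there. The deposited counts are whole numbers with totals of 15.7 M to 22.7 M per library. The authors' normalized values and test results were not used.

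Of 28207 genes, 16671 passed edgeR's filterByExpr in the day 60 libraries. These were tested with edgeR's quasi-likelihood F test (TMM factors, robust prior, 2 groups, two-sided), with Benjamini-Hochberg adjustment over all of them and calls at 0.05. Standard errors are the absolute log2 fold change over the root of F. CPM are counts scaled to library size times TMM factor. The comparison of days used the 8 libraries of code B16 in 4 groups. edgeR 4.0.16 (with limma 3.58.1) and DESeq2 1.42.0 ran under R 4.3.3. The code was tested on simulated counts with known changes, where the share of false calls lay above the nominal level.

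Alternatives were other sample sets, DESeq2, other size factors, filters and prior, a replicate block, and each library left out. Members and the 39 gene lists were chosen with earlier results of these data known. Named genes are FEZ1, FEZ2, CTSF, up to 12 called genes per direction with the largest change, a higher-group mean of 5 CPM or more and no overlap between groups, leaving out clone names and bare identifiers (LINC, FLJ and the like), and from each list up to 4 called members, or up to 2 uncalled ones by smallest p, without overlap. Other genes are marked in the text as chosen on their values. Results for a few genes are not reported here. HOX and pseudogene counts may share reads with neighbours or copies. Promoters are the first listed RefSeq start per gene on GRCh38.p14, used for sequence only, and no coordinate was converted from hg19.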

Additional observations from a re-analysis of the deposited data

Results flagged for a closer look

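In 23 of the genes named, the genotype difference was not the same at day 60 as at day 10, by the test of that difference in the 8 libraries of code B16. The values are the log2 fold change of FEZ1-null over wildtype at day 60 minus that at day 10. They were 8.2 for EBF1, 7.91 for PDYN, 7.23 for ACTC1, 7.21 for RELN, 6.67 for EBF3 and 6.25 for OLIG1. They were 5.16 for NHLH2, 5.12 for EYA2, 5.02 for GABBR2, 4.78 for MOXD1, 4.72 for INSM1 and 4.05 for NEFL in a further group of genes. Smaller positive values were 3.66 for PRDM13, 1.02 for OTX2, 3.84 for FOXP2, 2.46 for IRX2, 2.31 for NKD1, 1.17 for BMP7, 1.75 for ID4 and 2.31 for RND3. The differences below 0 were -1.22 for FEZ1, -2.17 for OLFML3 and -3.21 for AIF1. The values for OLIG1 and PRDM13 rest on day 10 levels near the floor. At day 10 OLIG1 had 0 and 0.0475 CPM in FEZ1-null organoids and 0.315 and 0.105 CPM in wildtype organoids. PRDM13 had 0.118 and 0.0475 CPM in FEZ1-null organoids and 0.18 and 0.316 CPM in wildtype organoids. Neither gene was called at day 10 (adjusted p = 0.126 and 0.203, edgeR's quasi-likelihood test). For RELN the log2 fold change was 0.95 at day 60 and -6.26 at day 10, where FEZ1-null organoids had 1.12 and 0.57 CPM and wildtype organoids 52.0 and 75.1 CPM. For PDYN it was 2.72 at day 60 and -5.19 at day 10, where FEZ1-null organoids had 0.53 and 0.285 CPM and wildtype organoids 12.9 and 16.6 CPM. The day 10 wildtype libraries of this code thus held more of both transcripts than the FEZ1-null libraries of the same day. With all 12 libraries in 1 fit, 0 genes were called for this difference.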

How the results depend on the processing

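The counts of calls did not hold across the 17 alternatives. All 130 called genes kept their direction in each, but none of them overlapped between groups, so a change of direction was hardly possible. The main counts were 99 higher and 31 lower. They were 0 and 4 with all 12 libraries in 1 fit, 4 and 5 with the 8 libraries of code B16, 356 and 212 with DESeq2, 216 and 65 with no filter on low counts, and 15 and 9 without the robust prior. Leaving out 1 library gave 0 to 1421 higher and 0 to 1949 lower with edgeR, and with DESeq2, an alternative chosen after seeing the data, 354 and 671 without wildtype replicate 1, 353 and 339 without wildtype replicate 2, 48 and 25 without FEZ1-null replicate 1, and 23 and 23 without FEZ1-null replicate 2. The lone library is then assumed to vary like the other group. FEZ1 was called in 14 of 17 alternatives, with log2 fold changes of -2.30 to -2.06. FEZ2 changed sign around 0 and was not called: its log2 fold change ran from -0.0849 to 0.0649 when a library was left out with edgeR, with 0.0461 without wildtype replicate 1, and with DESeq2 it was 0.0408 without that library and 0.0582 without FEZ1-null replicate 2. The cause of these changes was not tested.

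With the replicate block 330 and 184 genes were called at day 60. The log2 difference of replicate 1 minus replicate 2 was compared between FEZ1-null and wildtype organoids. Its Pearson correlation was 0.158 over 16671 genes, so the replicate numbers were not read as pairs. A crossed block, chosen after seeing the data, gave 0 and 0 (1915 genes at an unadjusted p below 0.05).

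For day 60 minus day 10 the main counts were 777 above and 131 below 0. They were 0 and 0 with all 12 libraries. The count below 0 was 235 with no filter, 247 with the replicate block and 449 with DESeq2. Leaving out 1 library gave 410 to 3614 above and 15 to 2847 below 0, the highest of both without FEZ1-null day 10 replicate 2.

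With 2 libraries per group, no edgeR call held without either FEZ1-null library. List medians changed sign in 6 of 39 lists without wildtype replicate 2 and in 4 without wildtype replicate 1. Genes of a few counts carry the widest intervals.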

Other observations

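The genes given here are outside the rule for naming, which leaves out identifiers such as LINC01305, and were chosen after their values were seen. P2RX3, an ATP-gated channel of sensory neurons, had 28.7 and 27.7 CPM in FEZ1-null organoids, against 8.68 and 10.2 CPM in wildtype organoids (log2 fold change 1.58 ± 0.12, adjusted p = 0.0127, edgeR's quasi-likelihood test). GFRA1, a receptor for glial cell line-derived neurotrophic factor, had 38.1 and 43.5 CPM in FEZ1-null organoids, against 13.2 and 15.7 CPM in wildtype organoids (adjusted p = 0.0127, edgeR). CBLN2, a synapse organiser, had 27.1 and 28.7 CPM in FEZ1-null organoids, against 9.82 and 10.3 CPM in wildtype organoids (log2 fold change 1.47 ± 0.11, adjusted p = 0.0127). The pairs were well apart in each. The noncoding RNA LINC01305 had 16.9 and 19.9 CPM in FEZ1-null organoids and 2.39 and 2.25 CPM in wildtype organoids, and was called in 13 of 17 alternatives.

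A further 16 genes of mitosis, among them NUSAP1, KIF11, CDC20, BUB1B and SMC4, were all called higher, with log2 fold changes of 0.49 to 0.70. They were picked from the called genes, so their direction is no evidence beyond the listed members. Progenitor factors called higher included SOX1, with 99.1 and 118 CPM in FEZ1-null organoids and 51.8 and 56.4 CPM in wildtype organoids, and FOXN4, with 86.6 and 90.3 CPM in FEZ1-null organoids and 54.8 and 58.1 CPM in wildtype organoids.

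Some called falls had next to no counts in FEZ1-null organoids. CXCL11, a chemokine, had 1 count over both FEZ1-null libraries and 182 over both wildtype libraries, a ratio of wildtype to FEZ1-null of 172 (95% interval 30.5 to 6832, counting error only). ZXDA, a zinc finger gene whose count is uncertain because it has a near-identical copy, had 1 count over the FEZ1-null libraries and 72 over the wildtype libraries. PEG3, an imprinted gene, had 6 over the FEZ1-null libraries and 140 over the wildtype libraries, a ratio of 22.1 (9.88 to 61.1).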
